A study of Mus musculus with 40 samples.

Results

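The 10 genes described here carry calcium and magnesium across the kidney tubule or set how much is carried: Trpv5, Trpm6, Calb1, S100g, Slc8a1, Cldn16, Cldn19, Casr, Pth1r and Cyp24a1. They were taken by name, not by any measured value, and all 10 were found among the 28467 genes of the bulk table and among the 32285 genes of the nucleus table. The samples were right kidneys of male C57BL/6 mice aged 8 to 12 weeks, with no allele or agent named in the labels, taken after removal of the left kidney (unilateral nephrectomy, UNx) or after a sham operation that left both kidneys in place. Bulk RNA-seq of polyadenylated RNA from a kidney cross-section covered 6 sham and 6 UNx mice at each of 24, 48 and 72 h (36 libraries). Single-nucleus RNA-seq, which assigns RNA to a cell class through the nucleus it came from, covered 2 sham and 2 UNx kidneys at 24 h, with DAPI-sorted nuclei from a section of each. Each time point had its own shams.

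Calcium that reaches the distal nephron is taken back through the cells. Trpv5 lets it in from the urine, the calbindins Calb1 and S100g carry it through the cytosol, and the sodium-calcium exchanger Slc8a1 moves it out on the blood side. Trpm6 is the entry channel for magnesium in the distal convoluted tubule. In the thick ascending limb both ions pass between the cells, through tight junction pores built from Cldn16 and Cldn19, and Casr, the calcium-sensing receptor, dampens that path when blood calcium is high. Pth1r, the receptor for parathyroid hormone, stimulates distal calcium uptake and lowers phosphate uptake in the proximal tubule, and Cyp24a1 degrades active vitamin D, which itself induces the distal calcium transport genes and Cyp24a1.

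In the GRCm38 (mm10) assembly used for the nuclei, S100g lies on the minus strand at chrX:162961992-162964599, Cldn16 on the plus strand at chr16:26463135-26482765 and Trpm6 on the plus strand at chr19:18749983-18892511. RefSeq promoter windows (GRCm38.p6, 250 bases before to 50 bases after an annotated start) matched 8 of the 10 genes with 11 windows, and Calb1 and Cyp24a1 had no entry. The vitamin D receptor binds hexamers of the nuclear receptor type, so each window was searched on both strands for 4 such hexamers. S100g, Cldn16 and Trpm6 were the only genes of the 8 with a match, and their windows are shown 5′ to 3′ along the gene, with matched bases in capitals. At least 1 match stood in 43.7% of all 32851 windows of the same length, so a match is not rare. The hexamer AGGTCA stood in 16.3% of them. AGTTCA stood in 14% of the windows. GGTTCA was the least frequent, in 10.4% of the windows. GGGTCA was found in 13.7% of the windows.
S100g (chrX:162964550-162964849, minus strand): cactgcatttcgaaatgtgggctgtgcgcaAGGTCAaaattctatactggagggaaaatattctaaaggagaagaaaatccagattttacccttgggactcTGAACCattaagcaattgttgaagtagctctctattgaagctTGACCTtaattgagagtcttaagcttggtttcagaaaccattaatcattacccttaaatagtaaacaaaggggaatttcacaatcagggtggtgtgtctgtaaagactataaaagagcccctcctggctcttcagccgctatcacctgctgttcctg
Cldn16 (chr16:26462885-26463184, plus strand): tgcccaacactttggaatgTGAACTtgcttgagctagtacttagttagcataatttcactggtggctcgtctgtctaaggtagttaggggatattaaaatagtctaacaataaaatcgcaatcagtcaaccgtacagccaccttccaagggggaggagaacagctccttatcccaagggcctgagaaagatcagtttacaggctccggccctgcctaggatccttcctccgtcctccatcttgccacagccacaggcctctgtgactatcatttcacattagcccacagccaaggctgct
Trpm6 (chr19:18749480-18749779, plus strand): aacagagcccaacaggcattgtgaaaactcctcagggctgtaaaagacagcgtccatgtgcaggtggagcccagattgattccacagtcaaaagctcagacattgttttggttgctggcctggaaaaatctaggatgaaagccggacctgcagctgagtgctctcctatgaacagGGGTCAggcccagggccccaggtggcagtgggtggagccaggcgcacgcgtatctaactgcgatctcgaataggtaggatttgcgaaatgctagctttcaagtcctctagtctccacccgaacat
In S100g, whose window was the only one with more than 1 match, AGGTCA stood at bases 31 to 36 on the printed strand and at bases 144 to 149 on the opposite strand, and GGTTCA at bases 102 to 107 on the opposite strand. Cldn16 held AGTTCA at bases 20 to 25 on the opposite strand, and Trpm6 held GGGTCA at bases 176 to 181 on the printed strand. No window of the 8 genes held a pair of these hexamers in the same direction with 3 bases (NNN) between them, an arrangement that stood in 0.0396% of all windows.

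Bulk libraries held 14.9 to 24.1 M estimated counts, and values are given as CPM, the counts per 1000000 counts of a library after TMM scaling. The 24 h libraries carry the label of batch 1 and the 48 h and 72 h libraries that of batch 2, so a difference between 24 h and a later time cannot be told apart from batch. Libraries also differed in a score from 271 pseudogenes that places the 48 h and 72 h shams near 0 and the 24 h shams near 1. At 24 h this score was 0.957 to 1.04 in shams and 0.674 to 0.884 in UNx. At 48 h the shams stood at -0.042 to 0.061, UNx replicates 1 to 5 at 0.640 to 0.717 and UNx replicate 6 at 0.00691, and the same 5 libraries had 25.8% to 26.4% of their counts in mitochondrially encoded genes against 15.2% in replicate 6. That share was 14% to 15.5% in the 48 h shams, 13.6% to 16.1% at 72 h and 21.5% to 26.7% at 24 h, so these 5 libraries lay in the range of the 24 h libraries. Within a time point the score therefore moved with surgery at 24 h and 48 h, and its part in the results was not tested beyond the fits with the score that are given beside them. In bulk RNA, fewer cells of a type and less RNA per cell cannot be told apart.

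The 48 h shams fell apart in a way that touches these genes. Sham replicates 4 to 6 lay above sham replicates 1 to 3 for Trpv5, Trpm6, Calb1, S100g, Slc8a1 and Cyp24a1 and below them for Cldn16, Cldn19 and Casr. That is 9 of the 10 genes, whereas 29.8% of all 15093 genes were separated in this way. Calb1 was at 272 to 290 CPM in sham replicates 1 to 3 and at 456 to 534 CPM in replicates 4 to 6, and Cyp24a1 at 17.1 to 37.6 CPM and 144 to 204 CPM. Cldn19 went the other way, with 40.6 to 45.2 CPM in replicates 1 to 3 and 16.6 to 26.3 CPM in replicates 4 to 6. Summed markers of the thin limb list (241 to 310 CPM against 72 to 123 CPM), the thick ascending limb (5221 to 6105 CPM against 3762 to 4503 CPM) and principal cells (305 to 623 CPM against 176 to 285 CPM) were also lower in replicates 4 to 6. In the nuclei the thin limb list was highest in the class labelled MPC, so it is not read as thin limb alone. Marker sums of intercalated cells and red blood cells were higher in replicates 4 to 6. Those of the distal convoluted tubule (DCT), connecting tubule (CNT) and proximal tubule overlapped. Their part in the results was not tested.

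Each gene's home along the nephron was read from the nuclei. The 16500 nuclei fell into 30 classes of the authors' deposited annotation, of which 23 had at least 10 nuclei in every mouse and were used. Levels are CPM of the counts summed per mouse and class. Marker sums were highest in the classes labelled DCT (18000 CPM of the DCT list) and CNT (1939 CPM of the CNT list, with 1879 CPM in the class labelled CPC), and for the proximal tubule list in PTS1 and PTS2. The thick limb list was highest in CTAL2 and MTAL. The thin limb list was highest in MPC (11450 CPM, next DTL1 with 3036 CPM) and not in ATL. MPC was also second for the principal cell list (1553 CPM, against 1616 CPM in CPC), so the thin limb list did not separate thin limb from principal cells. The podocyte list was highest in EC1 (398 CPM), but the class labelled Podo was not among the 23. EC1 was highest for the endothelium list (5762 CPM, next EC2 with 3761 CPM). These class names are used here as labels only.

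**Figure D1:**
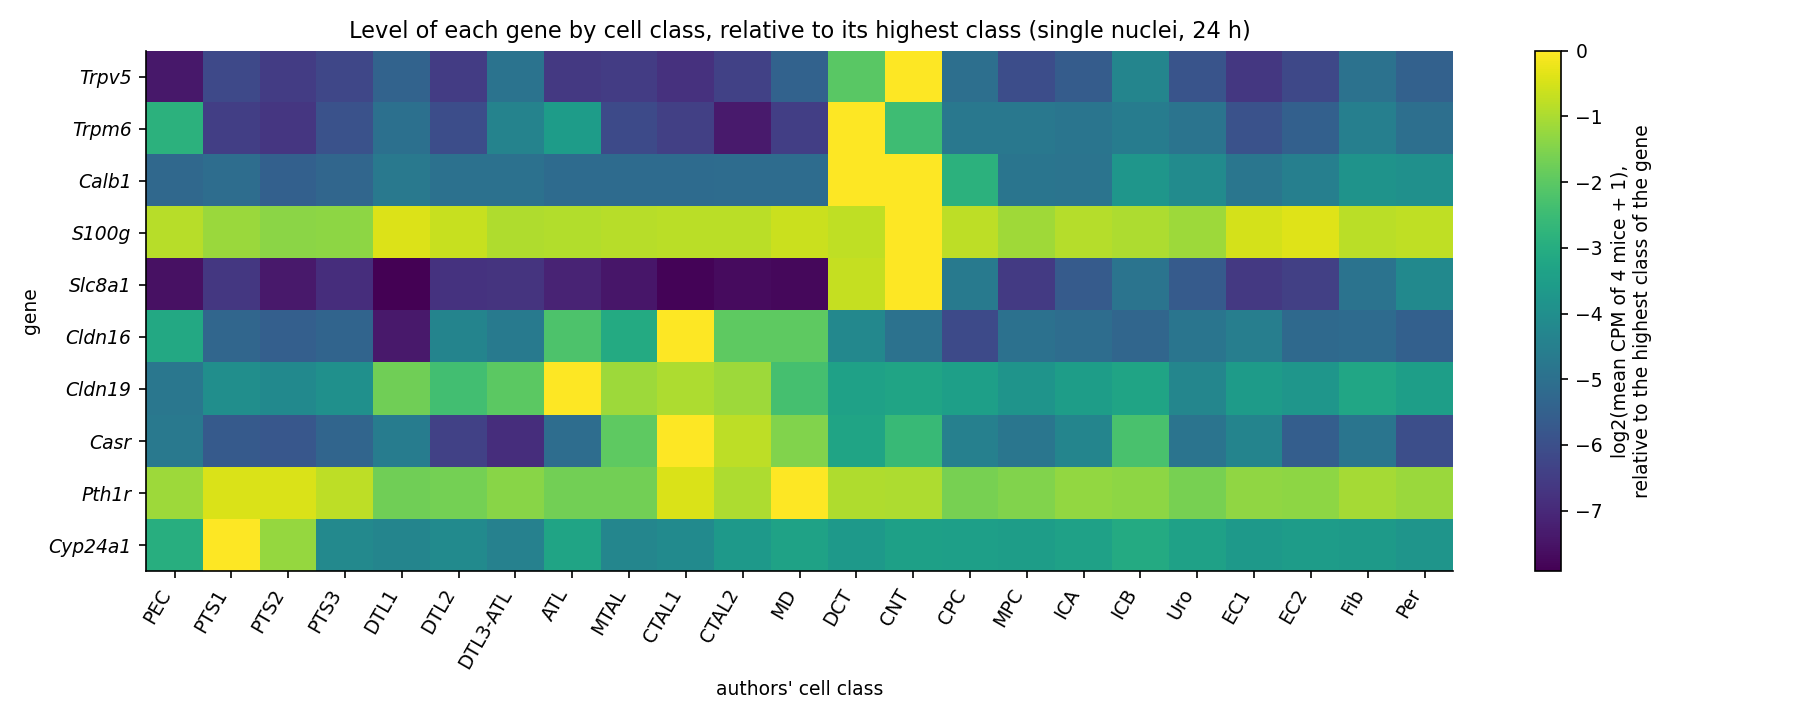
Mean level of each gene (rows) over 4 mice in 23 cell classes (columns) at 24 h, as log2(CPM + 1) relative to the gene's own highest class, so that colours compare classes within a row and not genes. Trpv5, Trpm6, Calb1 and Slc8a1 peak in DCT and CNT, Cldn16 and Casr in CTAL1, Cyp24a1 in PTS1, while S100g and Pth1r spread over many classes.

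Trpv5 stood at 267 and 113 CPM in the CNT class of sham replicates 1 and 2 and at 207 and 90.3 CPM in that of UNx replicates 1 and 2. The DCT class followed with 67.7 and 29.6 CPM in shams and 42.9 and 23.8 CPM in UNx, and every mouse's CNT value lay above every DCT value. A count of Trpv5 was seen in 60.5% of CNT nuclei and in 0.964% of PTS1 nuclei, at median depths of 7372 and 10600 UMIs. Trpm6 was highest in DCT, with 2072 and 1010 CPM in shams and 1134 and 518 CPM in UNx, and 96.2% of DCT nuclei (median depth 8438 UMIs) had a count against 5.38% in PTS1. Its CNT level averaged 215 ± 75.3 CPM (SD, n = 4 mice), below DCT in every mouse.

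The calbindins differed from each other. Calb1 averaged 1593 ± 893 CPM in DCT and 1586 ± 565 CPM in CNT (SD, n = 4), values that overlapped between mice, and both classes lay above the next, CPC, with 223 ± 115 CPM. By the share of nuclei with a count CNT came first, with 86.6% against 74.5% in DCT. S100g had no such step: it was highest in CNT at 361, 551, 245 and 325 CPM (sham 1 and 2, UNx 1 and 2), yet neighbouring classes overlapped, and PTS1 held it in 52.3% of nuclei. In the mice of batch 4 (replicate 2 of each group) PTS1 reached 378 and 189 CPM, against 43.6 and 35.1 CPM in batch 3. A proximal gene was likewise higher in batch 4 in a distal class. Slc34a1, the proximal phosphate carrier, was at 2321 and 1956 CPM in the DCT class of batch 4 and at 75.3 and 108 CPM in that of batch 3. Whether S100g counts at this level belong to the class itself was not tested.

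Slc8a1 was high in CNT (33590 ± 19480 CPM) and DCT (20810 ± 11210 CPM, SD, n = 4), and both stood above the class labelled Per at 1863 ± 2034 CPM. CNT and DCT overlapped across mice, but within every mouse CNT was above DCT. Of all Slc8a1 counts, 51.3% came from DCT and 35% from CNT.

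The thick limb genes split between its parts. Cldn16 was at 174, 117, 219 and 146 CPM in CTAL1 (sham 1 and 2, UNx 1 and 2), above every value of CTAL2, which averaged 41.0 ± 11.8 CPM. It was seen in 58.3% of CTAL1 nuclei and 2.19% of PTS1 nuclei. Cldn19 was broader: the class labelled ATL led with 128 ± 57.7 CPM, followed by CTAL1 (63.9 ± 16.6 CPM), MTAL (56.9 ± 10.1 CPM) and CTAL2 (56.1 ± 12.2 CPM). Across mice CTAL1 overlapped with ATL, while MTAL and CTAL2 lay below every ATL value. Within every mouse ATL was highest of these classes. CTAL1, MTAL and CTAL2 overlapped with each other. Casr stepped down from CTAL1 (744 ± 136 CPM) to CTAL2 (433 ± 50.9 CPM) to MD (260 ± 85.4 CPM), with no overlap between these neighbours, while MD and MTAL (190 ± 51.8 CPM) overlapped.

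Pth1r had no leading class beyond the spread, with MD (266 ± 181 CPM), PTS1 (196 ± 132 CPM), CTAL1 (195 ± 109 CPM) and PTS2 (193 ± 134 CPM) overlapping, and 50 nuclei behind the MD value. By share of nuclei with a count MD came at rank 5. PTS1 held 22.7%, PTS2 20.1% and PTS3 16.1% of all Pth1r counts. The SDs include a difference between batches. In batch 3 (sham and UNx) Pth1r was at 86.6 and 106 CPM in PTS1 and 93.9 and 126 CPM in CTAL1, against 12.9 and 24.3 CPM in MTAL. In batch 4 it was at 217 and 375 CPM in PTS1 and 116 and 172 CPM in MTAL. Cyp24a1 was proximal: 62% of its counts came from PTS1 and 24.4% from PTS2, at 222 ± 144 and 91.7 ± 68.0 CPM, and 44.6% of PTS1 nuclei had a count against 10.8% of DCT nuclei.

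Across the 23 classes the genes most like each member in Pearson's r of log2(CPM + 1), among 7070 genes, were other members in the case of Trpv5, Calb1 and Slc8a1. Trpv5 went with Calb1 (r = 0.936) and Slc8a1 (r = 0.91), and Calb1 with Slc8a1 (r = 0.945). Trpm6 went with Nup93 (r = 0.774) and Tsc22d1 (r = 0.731), and S100g with Pds5b (r = 0.775) and Klk1 (r = 0.774). Cldn16 went with Slc12a1, the thick limb salt carrier (r = 0.803), and Ppp1r1a (r = 0.792), and Cldn19 with Sim2 (r = 0.887). Casr went with Slc16a5 (r = 0.919) and Slit2 (r = 0.91), Pth1r with Sardh (r = 0.834) and Etv5 (r = 0.797), and Cyp24a1 with Slc22a8, a proximal organic anion carrier (r = 0.89), and Ass1 (r = 0.887). All classes come from the same 4 libraries.

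The first bulk question was what nephrectomy did to these genes at 24 h. The calbindins, the exchanger and Cldn16 were higher in UNx and Casr was lower, while both entry channels, Cldn19 and Cyp24a1 showed no called change. In edgeR's quasi-likelihood test with Benjamini-Hochberg adjustment over all genes, 5 of the 10 were called at an adjusted p under 0.05, where 27.3% of all 14104 genes tested were called (14.2% higher and 13.1% lower).

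**Figure D2:**
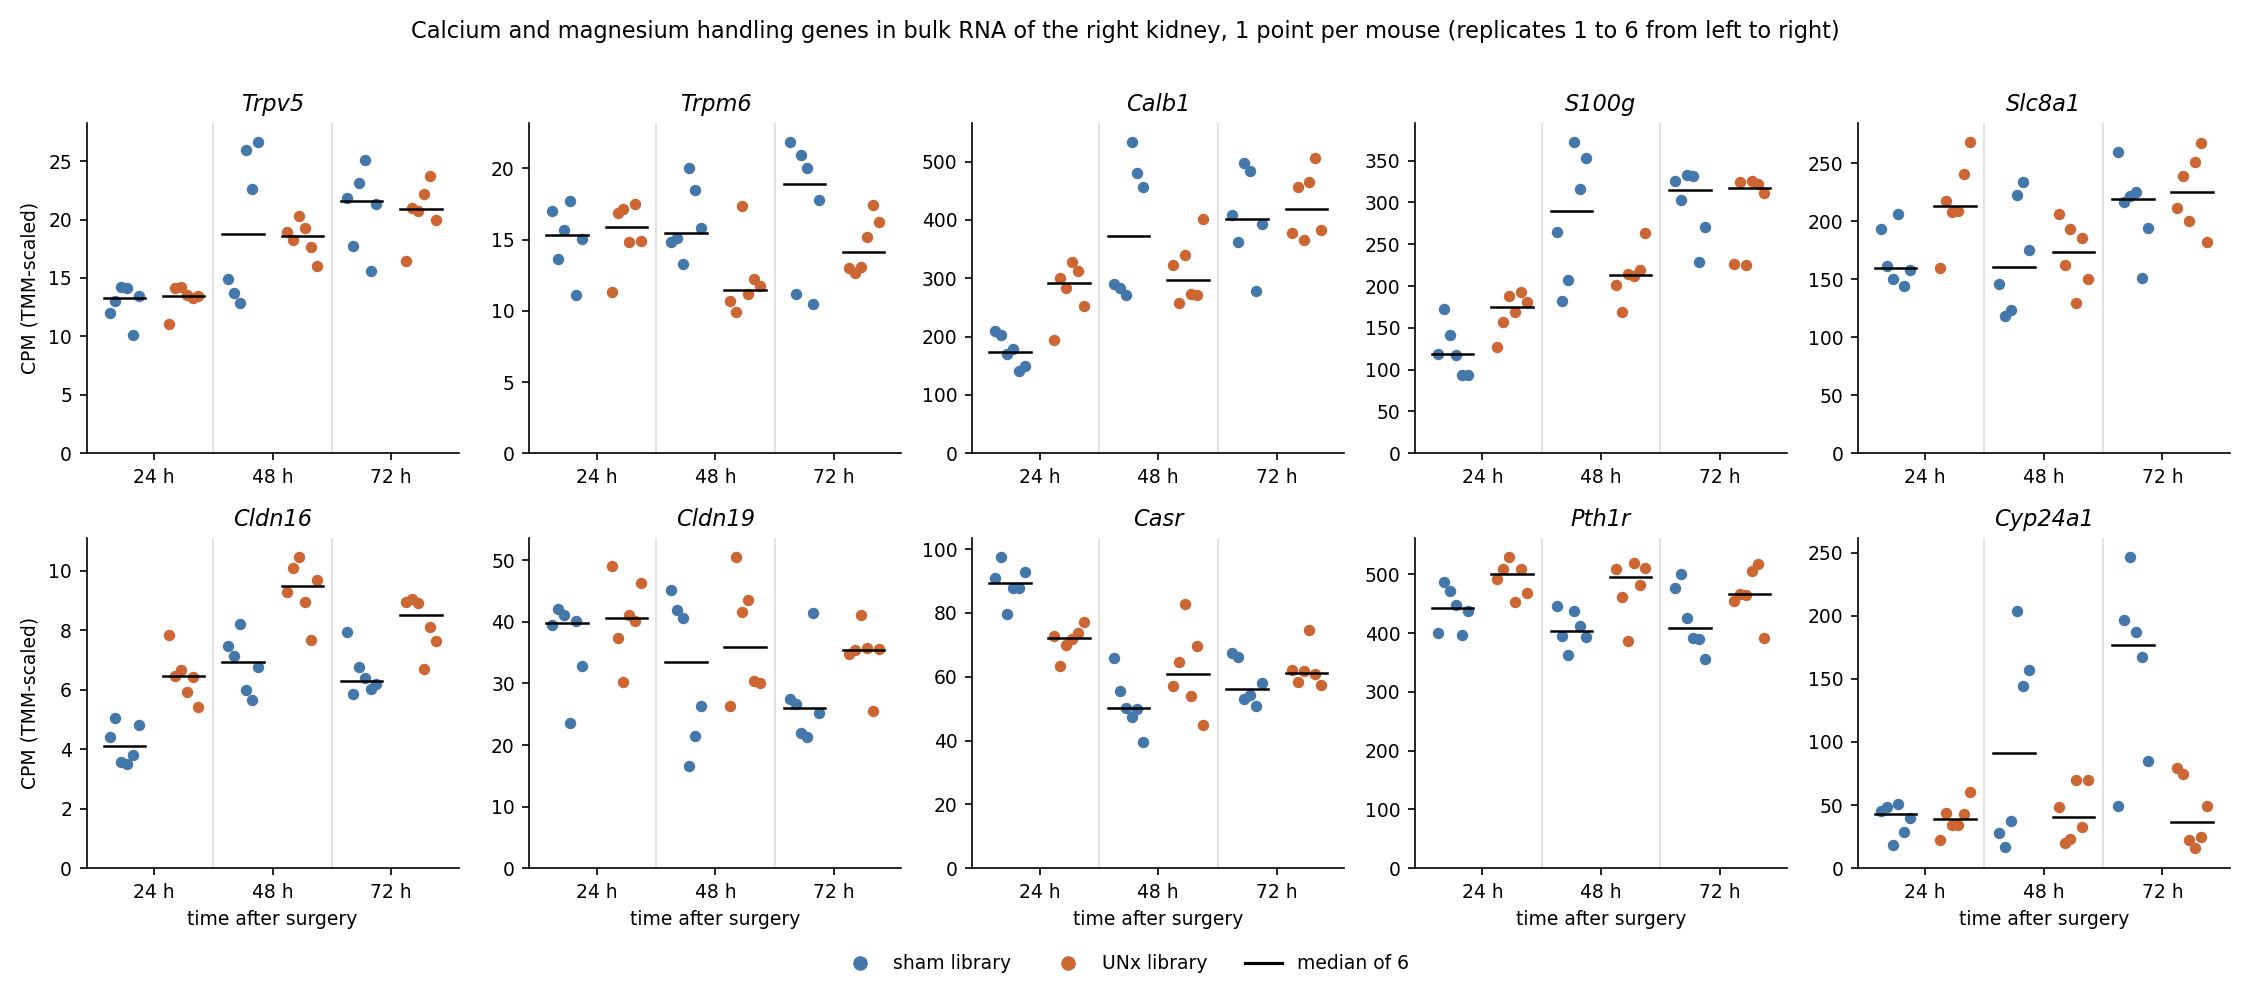
CPM of each gene (1 panel per gene) in every bulk library by time after surgery (x axis), with 6 sham and 6 UNx points per time and the median as a line. At 24 h the UNx libraries of Cldn16 lie above and those of Casr below all shams, and at 48 h the shams of Calb1 and Cyp24a1 fall into a low and a high group.

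Calb1 had a lowest, median and highest value of 142, 174 and 210 CPM in shams and 194, 292 and 329 CPM in UNx. The ranges overlapped only through UNx replicate 1, the lowest UNx library. Its log2 fold change was 0.67 ± 0.12 (SE), with an adjusted p of 0.00137. S100g went from 93.1, 118 and 173 CPM to 127, 175 and 193 CPM (log2 fold change 0.46 ± 0.14, SE, adjusted p = 0.0228). Its groups overlapped. Slc8a1 went from 144, 160 and 206 CPM to 160, 213 and 269 CPM (0.36 ± 0.11 log2, SE, adjusted p = 0.0243), again with overlap.

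Cldn16 was low in bulk RNA, at 3.51, 4.11 and 5.05 CPM in shams and 5.43, 6.46 and 7.83 CPM in UNx. All 6 UNx libraries exceeded all 6 shams, and the log2 fold change was 0.62 ± 0.12 (SE, adjusted p = 0.00212). Casr was at 79.7, 89.4 and 97.6 CPM in shams and 63.5, 72.3 and 77.2 CPM in UNx, a log2 change of -0.32 ± 0.061 (SE, adjusted p = 0.00165), and all UNx libraries lay below all shams. These were the only 2 of the 10 genes without overlap, against 10.1% of all genes. Cldn19, the partner of Cldn16, was at 23.6, 39.8 and 42.1 CPM in shams and 30.3, 40.6 and 49.1 CPM in UNx (0.16 ± 0.14 log2, SE, adjusted p = 0.419).

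Trpv5 (median 13.2 CPM in shams and 13.5 CPM in UNx) and Trpm6 (15.3 and 15.9 CPM) had log2 differences of 0.05 ± 0.087 and 0.04 ± 0.11 (SE). Pth1r was at 397, 443 and 487 CPM in shams and 453, 501 and 530 CPM in UNx and just missed the threshold (0.17 ± 0.061 log2, SE, adjusted p = 0.0545). Cyp24a1 overlapped, with medians of 42.6 and 38.9 CPM. With the pseudogene score as a covariate none of the 10 was called at 24 h, in a fit that called 80 of all 14104 genes. There Calb1 was at 0.34, S100g at 0.41, Slc8a1 at 0.86, Cldn16 at 0.12 and Casr at -0.22 on the log2 scale, so the size of the difference was larger than without the score for Slc8a1 and smaller for the other 4. With that covariate over all 36 libraries, where 1755 of 15093 genes were called, Cldn16 alone of the 10 was called (0.57, adjusted p = 0.0068). In fits without the covariate, leaving out sham replicate 5, sham replicate 6 or UNx replicate 5 gave a count of 3. Those fits called 3130 of 14222, 3102 of 14230 and 3163 of 14203 genes. Summed DCT markers overlapped between groups (965 to 1470 CPM in shams, 1047 to 1407 CPM in UNx), as did those of CNT, the thick limb and the proximal tubule.

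**Figure D3:**
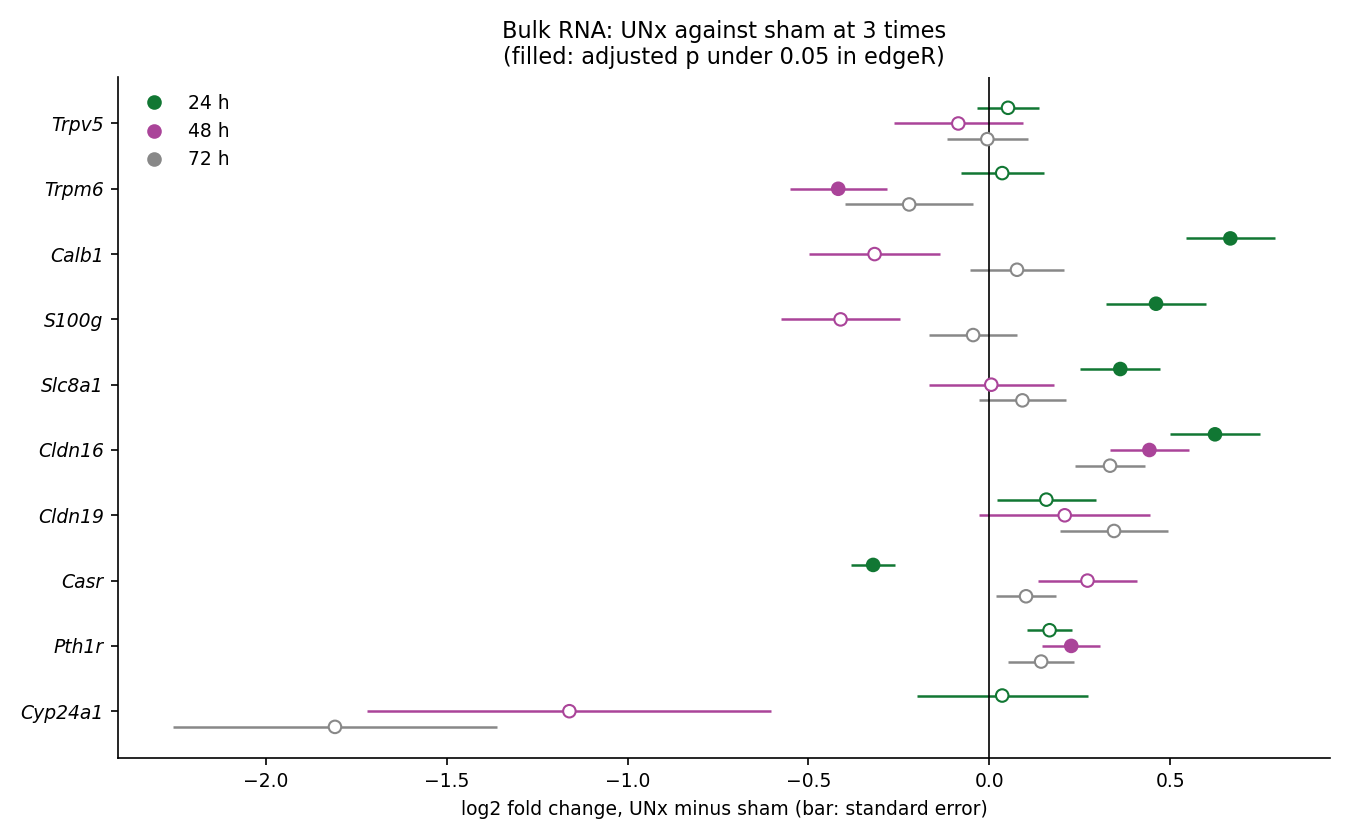
Log2 fold change of UNx over sham in bulk RNA (x axis, bar: SE) for each gene at 24, 48 and 72 h, with filled points at an adjusted p under 0.05. Calb1, S100g and Casr, none of them called at 48 h, lie on opposite sides of 0 at 24 h and 48 h, and Cldn16 lies to the right of 0 at all 3 times.

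At 48 h the pattern was different: Cldn16 and Pth1r were higher in UNx and Trpm6 was lower, and neither calbindin was called. That is 3 of the 10, where 32.9% of all 14280 genes tested were called (16.9% higher and 16% lower). Trpm6 was at 13.3, 15.5 and 20.0 CPM in shams and 9.90, 11.5 and 17.4 CPM in UNx. Replicate 3 of UNx stood apart at 17.4 CPM and the other 5 UNx libraries, at 9.90 to 12.2 CPM, lay below every sham (log2 fold change -0.42 ± 0.13, SE, adjusted p = 0.0284). Cldn16 was at 5.66, 6.95 and 8.20 CPM in shams and 7.67, 9.49 and 10.5 CPM in UNx (0.44 ± 0.11 log2, SE, adjusted p = 0.00742), with overlap. Pth1r was at 363, 404 and 445 CPM in shams and 387, 496 and 519 CPM in UNx (0.23 ± 0.081 log2, SE, adjusted p = 0.0439). No gene of the 10 had groups without overlap at 48 h, against 11% of all genes. Summed CNT markers were at 1558, 1890 and 1985 CPM in shams and 1697, 2593 and 3034 CPM in UNx, with Klk1 (0.58 log2, adjusted p = 0.00869) and Scnn1b (0.32, adjusted p = 0.046) called higher. The rest of that list was not called: Hsd11b2 was at 0.27, Scnn1g at 0.095 and Aqp2, on the other side of 0, at -0.70. Thick limb markers had medians of 4862 and 4227 CPM, DCT markers 1004 and 1118 CPM, proximal markers 9814 and 10140 CPM and fibroblast markers 167 and 110 CPM, all with overlap. Single markers of other lists were called too, among them Aqp1 (-0.54), Slc22a6 (0.66) and Dcn (-0.92). The part of these shifts in the results was not tested.

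Calb1 at 48 h was at 272, 373 and 534 CPM in shams and 258, 298 and 402 CPM in UNx (-0.32 ± 0.18 log2, SE, adjusted p = 0.188). S100g was at 182, 290 and 372 CPM and 169, 214 and 263 CPM (-0.41 ± 0.17 log2, SE, adjusted p = 0.0695). Cyp24a1 spread from 17.1 to 204 CPM in shams and from 19.6 to 70.2 CPM in UNx (-1.16 ± 0.56 log2, SE, adjusted p = 0.122).

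These 48 h results turned on which shams entered the fit. The split of the shams was chosen after seeing that most of these genes separated along it. Differing calls between the parts were thus built in, and the counts below only describe that dependence. Against sham replicates 4 to 6 alone, 7 genes were called (18.2% of all genes), with Trpv5 at -0.44, Calb1 at -0.65, S100g at -0.70, Cyp24a1 at -1.93 and Cldn19 at 0.79 on the log2 scale. Against sham replicates 1 to 3 alone, 1 gene was called (21.8% of all genes): Trpv5, at 0.41 and so in the opposite direction, while Calb1 was at 0.15, Cyp24a1 at 0.68 and Cldn16 at 0.30 (adjusted p = 0.0892). Cldn16 lay above 0 and Trpm6 below 0 in both fits, Trpm6 with -0.56 and -0.24. Without UNx replicate 6 the count was 5, with S100g (-0.46, adjusted p = 0.0448) and Casr (0.37, adjusted p = 0.0313) added, in a fit that called 6004 of all 14425 genes. A fit with UNx replicate 6 as the only UNx library called 0 of all 15605 genes and so cannot show a change in calls, and in it Cldn16 was at 0.50 and Trpm6 at -0.46, close to the values from all libraries. The fit with the pseudogene score as a covariate called 0 of all 14280 genes, with Cldn16 at 0.44 and Trpm6 at -0.40. Of the UNx libraries only replicate 6 has a score within the range of the shams. The fit with the score therefore rests largely on that library too and is not a separate check. Other genes did not hold their values in the fit with UNx replicate 6 alone and the fit with the score. Calb1 was at 0.060 and 0.16 there, against -0.32 from all libraries. S100g was at -0.099 and -0.0091, against -0.41. Casr was at -0.19 and -0.23, against 0.27, and so on the other side of 0. The count was 1 without sham replicate 5 or without any 1 of UNx replicates 1, 2, 4 and 5, while Trpm6 stayed at -0.36 to -0.42 and Pth1r at 0.20 to 0.24 on the log2 scale. Those fits called from 3727 of 14459 to 3980 of 14391 genes.

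At 72 h no gene of the 10 was called by edgeR, against 1.71% of all 14556 genes tested. The unadjusted p was under 0.05 for 3 of the 10. Cyp24a1 had the largest difference of the 10. Its shams were at 49.4, 177 and 247 CPM and its UNx libraries at 15.8, 36.6 and 79.4 CPM. Sham replicate 1, at 49.4 CPM, was the only sham inside the UNx range, and the log2 fold change was -1.81 ± 0.45 (SE, adjusted p = 0.059). The DESeq2 Wald test gave an adjusted p of 0.0116 and limma voom with sample weights one of 0.017. Without sham replicate 1 the log2 change was -1.99 (adjusted p = 0.0334 in edgeR) and without UNx replicate 6 it was -1.84 (adjusted p = 0.0484). With all 36 libraries in 1 edgeR fit the adjusted p was 0.0409. The other fits with 1 library left out did not call it, nor did the replicate block. With the pseudogene score in edgeR it was at -1.42 (adjusted p = 0.38), and over all 36 libraries at -1.71 (adjusted p = 0.0537).

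Cldn16 at 72 h was at 5.87, 6.30 and 7.93 CPM in shams and 6.70, 8.50 and 9.05 CPM in UNx (0.33 ± 0.096 log2, SE, adjusted p = 0.096 in edgeR and 0.0417 in DESeq2). Cldn19 was at 21.4, 26.0 and 41.4 CPM and 25.6, 35.5 and 41.1 CPM (0.34 ± 0.15 log2, SE, adjusted p = 0.251), and without sham replicate 5 it was at 0.50 (adjusted p = 0.0345). Calb1 (medians 401 and 419 CPM), S100g (315 and 317 CPM) and Slc8a1 (219 and 225 CPM) had log2 differences between -0.05 and 0.09. All groups of the 10 overlapped at 72 h, against 2.01% of all genes that did not.

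Whether the effect itself changed with time was tested in 1 fit over all 36 libraries. From 24 h to 48 h it moved down for Calb1 by -0.96 ± 0.23 log2 (SE, adjusted p = 0.00131) and for S100g by -0.85 ± 0.22 (SE, adjusted p = 0.0031), and up for Casr by 0.62 ± 0.15 (SE, adjusted p = 0.00141). These 3 of the 10 stand beside 37% of all 15093 genes, and the contrast runs across batches 1 and 2. Sham levels also differed between the times, which was not tested: the Calb1 sham median was 174 CPM at 24 h, 373 CPM at 48 h and 401 CPM at 72 h, that of S100g 118, 290 and 315 CPM, and that of Casr 89.4, 50.1 and 56.2 CPM. With the pseudogene score as a covariate 1 of all 15093 genes was called and none of the 10, and Casr was at -0.089 ± 0.24 (SE, adjusted p = 0.927). Between 48 h and 72 h, which carry the same batch label although 5 of the 48 h UNx libraries differ from the rest in the score, edgeR called none of the 10 (14.6% of all genes), and none had an unadjusted p under 0.05. DESeq2 also called none. Between 24 h and 72 h edgeR called none (4.15% of all genes) and 4 had an unadjusted p under 0.05. DESeq2 called Casr there (adjusted p = 0.0479), beside 952 of all 15093 genes.

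The nuclei allowed the 24 h comparison within a cell class. Without a term for batch edgeR called none of 171 tested pairs of a gene and a class (0% of 219721 pairs over all genes), and 3 pairs had an unadjusted p under 0.05. The DESeq2 Wald test called 1, Cyp24a1 in PTS2 (adjusted p = 0.0488), where it called 35 of 14293 genes. Replicate 1 of each group is batch 3 and replicate 2 is batch 4 in the labels, so the replicates are paired, and with the batch as a block 11 pairs were called, 4 higher and 7 lower in UNx, beside 0.726% of all pairs. On simulated data of the same size the fits without the block recovered no changed gene, so their count of 0 says little, and the blocked fits made more false calls than the nominal share. Adjusted p-values below are from the blocked fit.

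**Figure D4:**
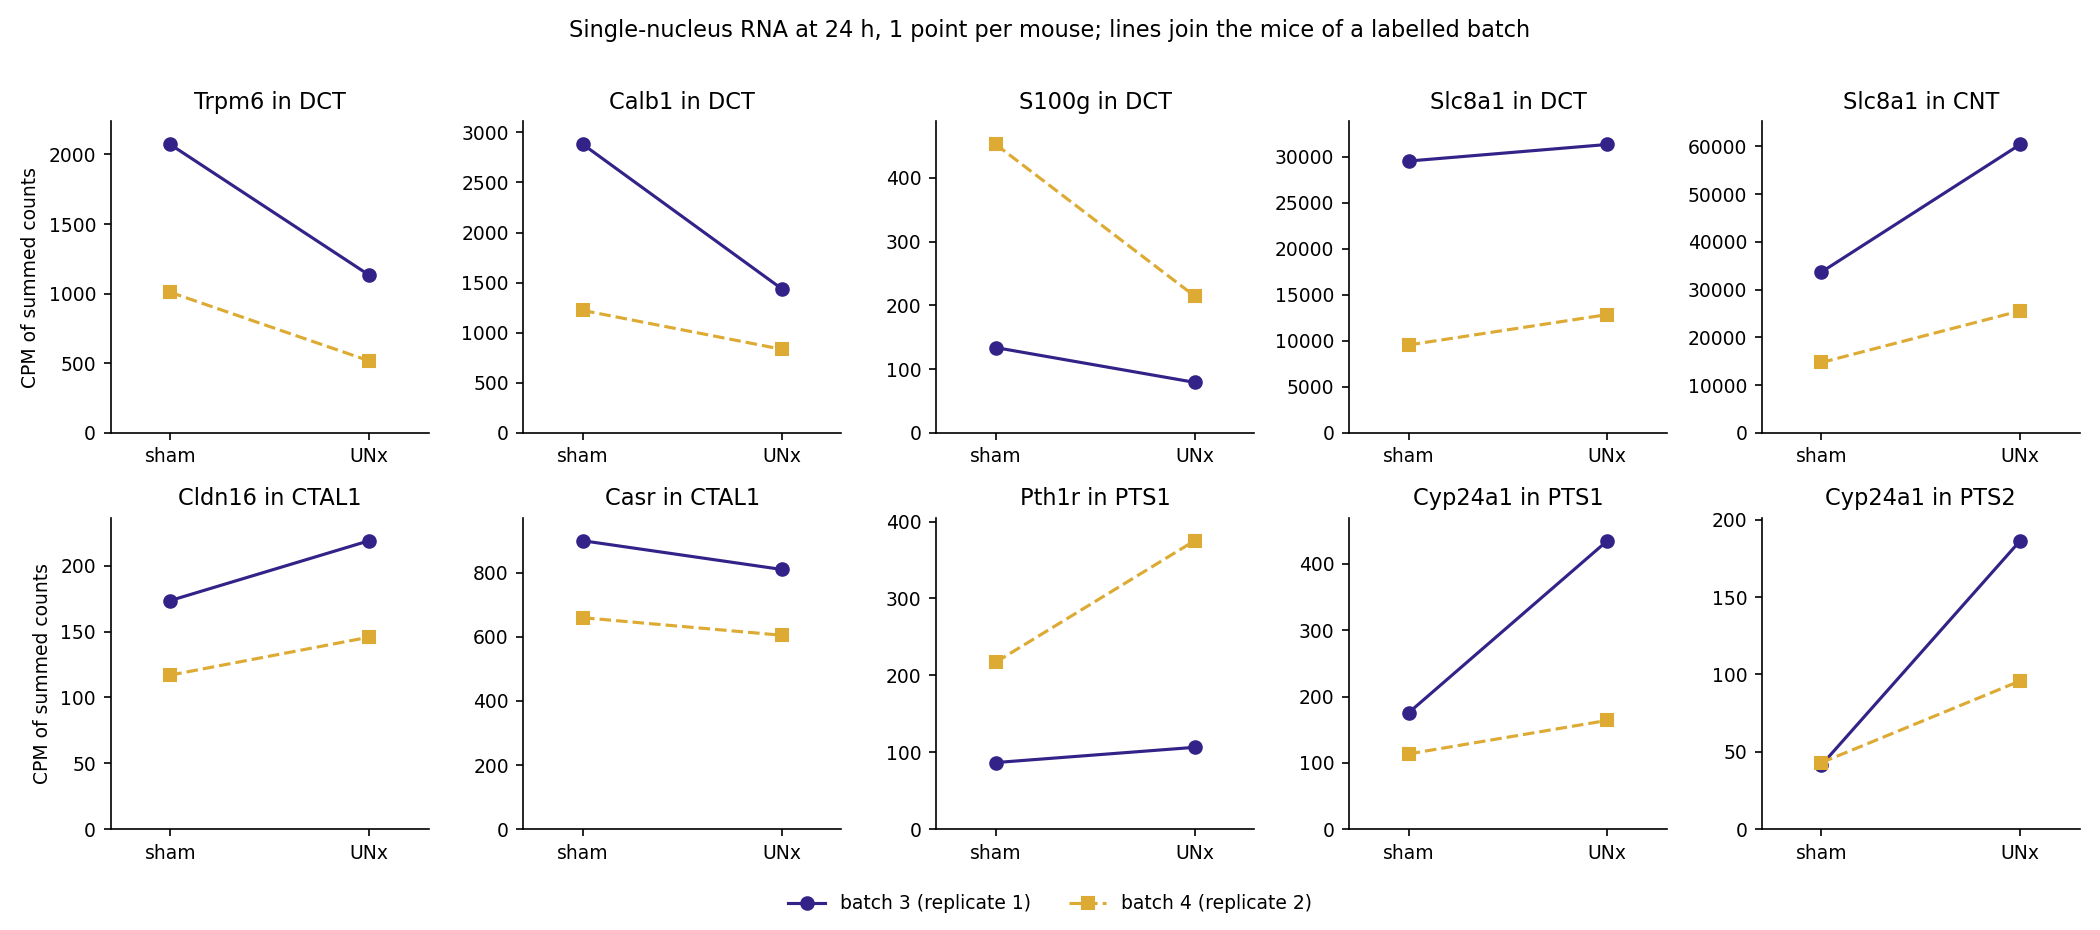
CPM of summed counts in 10 pairs of a gene and a class at 24 h, with sham and UNx on the x axis and 1 point per mouse, joined within batch 3 and batch 4. Trpm6, Calb1 and S100g in DCT fall and Cyp24a1 in PTS1 and PTS2 rises in both batches, while the batches themselves differ in level.

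In the DCT class, where 61 genes or 0.481% of those tested were called, Trpm6 and Calb1 were lower in UNx, and S100g was called at a level near that of other classes. Trpm6 went from 2072 to 1134 CPM in batch 3 and from 1010 to 518 CPM in batch 4 (log2 fold change -0.89, adjusted p = 0.00439). Calb1 went from 2879 to 1438 CPM and from 1222 to 835 CPM (-0.75, adjusted p = 0.0356). S100g went from 134 to 79.3 CPM and from 453 to 215 CPM (-0.90, adjusted p = 0.00706), but it was lower in both batches in every tested class except DTL3-ATL, ICA and MD, and in PTS1 it went from 43.6 to 35.1 CPM and from 378 to 189 CPM. The S100g call is therefore not particular to DCT. Trpm6 and Calb1 were also lower in both batches in some other classes, at lower levels. In CPC, Trpm6 went from 49.3 to 35.5 and from 76 to 13.1 CPM, and Calb1 from 380 to 233 and from 153 to 125 CPM. In CNT the batches went in opposite directions for both genes, and in PEC Trpm6 rose, from 129 to 233 and from 142 to 157 CPM. Lower Trpm6 and Calb1 are thus not shown to be particular to DCT. Summed DCT markers stayed level within a batch, at 22930 and 22440 CPM in batch 3 and 13620 and 13000 CPM in batch 4. Slc8a1 in DCT was at 29530 and 31330 CPM in batch 3 and 9552 and 12850 CPM in batch 4 and was not called.

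In CNT, Slc8a1 was higher in UNx, at 60400 against 33680 CPM in batch 3 and 25550 against 14740 CPM in batch 4 (log2 fold change 0.87, adjusted p = 0.022, 0.458% of genes called). Calb1 in CNT was at 1969 and 2141 CPM in batch 3 and 1290 and 943 CPM in batch 4, in opposite directions. DCT nuclei made up 5.95% (exact 95% interval 5.33% to 6.62%) and 8.63% (7.59% to 9.77%) of the sham nuclei and 4.87% (4.30% to 5.50%) and 5.79% (5.03% to 6.64%) of the UNx nuclei. CNT nuclei made up 3.31% and 3.33% in shams and 2.70% and 2.67% in UNx. The intervals cover counting error only.

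Cyp24a1 was higher in UNx in PTS1 and PTS2, 2 of the 3 proximal classes. In PTS2 it went from 41.4 to 186 CPM in batch 3 and from 43.0 to 95.8 CPM in batch 4 (log2 fold change 1.70, adjusted p = 0.00171, 3.03% of genes called). In PTS1 it went from 176 to 435 CPM and from 114 to 164 CPM (0.99, adjusted p = 0.0284, 1.63% of genes called). Summed proximal markers in PTS1 were at 14810 and 11150 CPM in batch 3 and 12370 and 10730 CPM in batch 4. In PTS3, Cyp24a1 was at 1.19 and 3.41 CPM in batch 3 and 16.5 and 23.4 CPM in batch 4 and was not called (adjusted p = 0.276 with the block). Pth1r in PTS1, at 86.6 and 106 CPM and at 217 and 375 CPM, was not called.

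The other 5 called pairs lay in classes where the gene was not at its highest, and in 3 of them 1 batch carried nearly all of the difference. In ICB, Slc8a1 was at 2896 CPM in sham replicate 1, from 25 nuclei, and at 124 CPM in UNx replicate 1, against 859 and 692 CPM in batch 4 (-2.24, 0.632% of genes called). Calb1 in ICB was at 242 and 19.3 CPM in batch 3 and 139 and 69.6 CPM in batch 4 (-1.94). In EC1, Slc8a1 was at 66.6 and 78.2 CPM in batch 3 and 226 and 994 CPM in batch 4 (1.46, 0.836% called). Trpm6 in ICA was at 20.8 and 17.6 CPM in batch 3 and 118 and 6.66 CPM in batch 4 (-2.08, 0.797% called). In MPC, Trpm6 was lower in both batches, at 38.5 and 8.66 CPM and at 92.0 and 32.5 CPM (-1.65, 0.382% called).

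The thick limb genes were not called in any class. In CTAL1, Cldn16 was at 174 and 219 CPM in batch 3 and 117 and 146 CPM in batch 4 (log2 fold change 0.37, adjusted p = 0.596 with the block). Casr there was at 900 and 810 CPM and at 660 and 605 CPM (-0.09, adjusted p = 0.946 with the block), and 0.603% of all genes were called in this class. In MTAL, Casr was at 200 and 257 CPM in batch 3 and 166 and 137 CPM in batch 4, in opposite directions. Cells of CTAL1 and CTAL2 together made up 9.12% and 7.88% of sham nuclei and 10.3% and 7.99% of UNx nuclei.

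Summed over all nuclei, edgeR called none of the 10 genes without the block (Trpm6 and Calb1 had an unadjusted p under 0.05), and DESeq2 called none. With the block it called Trpm6 (-1.09, adjusted p = 0.0157) and Calb1 (-0.84, adjusted p = 0.0295), beside 1.04% of all genes. Set beside bulk RNA of other mice at the same time, Calb1 lay on opposite sides of 0: its log2 difference was 0.67 in bulk and -0.95 and -0.87 in batches 3 and 4 of the nuclei. S100g was at 0.46 in bulk and -0.44 and -0.99 in the nuclei, and Trpm6 at 0.04 against -1.06 and -1.25. Cldn16 lay above 0 in both kinds of data, with 0.62 in bulk and 0.53 and 0.15 in the nuclei. Casr was at -0.32 in bulk and at 0.069 and -0.14 in the nuclei, and Cyp24a1 at 0.04 in bulk and at 1.41 and 0.25 in the nuclei. The difference between bulk and nuclei was not tested, since the kinds of library share no fit.

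**Figure D5:**
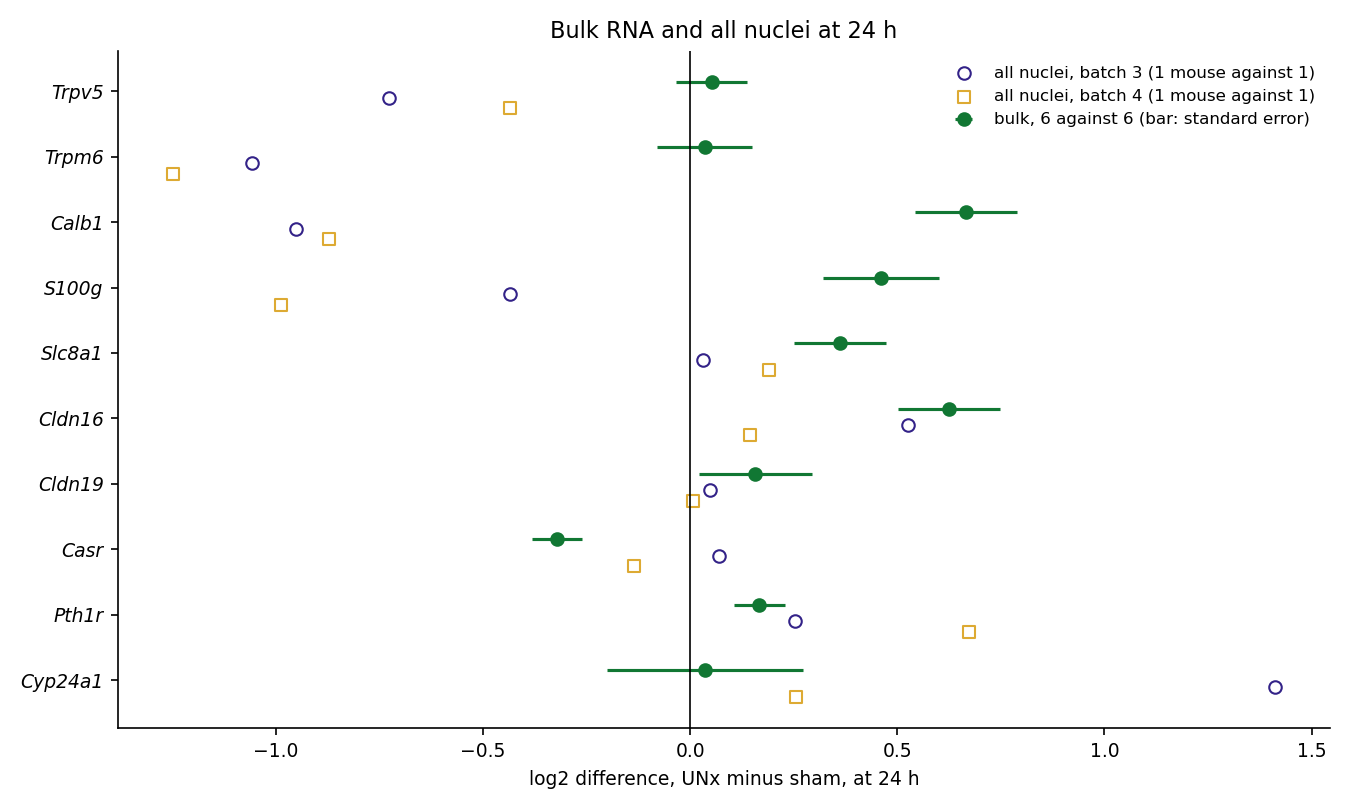
Log2 difference of UNx from sham at 24 h (x axis) for each gene in bulk RNA (filled point, bar: SE, 6 against 6 mice) and in all nuclei of batch 3 and of batch 4 (open points, 1 mouse against 1). Calb1 is at 0.67 in bulk and at -0.95 and -0.87 in the nuclei, and Trpm6 is near 0 in bulk and below -1 in both nucleus batches.

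Other genes of calcium, magnesium and phosphate handling were counted in 5 lists of 60 genes in bulk RNA. Their counts are to be read against the 27.3% of all genes called at 24 h and the 32.9% called at 48 h. Beside transcellular calcium transport, 1 of 6 rose and none fell at 48 h, S100a10, a partner protein of Trpv5 (0.30 log2, adjusted p = 0.0124 in edgeR). Of the thick limb list 9 of 10 genes were tested. At 24 h 1 rose, Kcnj1 for the potassium channel that recycles potassium into the urine (0.23, adjusted p = 0.0136), and 4 fell, with the tight junction gene Cldn3 at the lowest p (-0.74, adjusted p = 0.000341). At 48 h 3 rose and none fell, with Cldn10, another tight junction gene, at 0.54 (adjusted p = 0.0027).

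Of the 16 magnesium genes tested, 1 rose and 3 fell at 24 h and 5 rose and 2 fell at 48 h. Pcbd1, a transcriptional cofactor, was at 0.29 at 24 h (adjusted p = 0.00703). Fxyd2, a subunit of the sodium pump, was at 1.02 at 48 h (adjusted p = 0.000346), and the channel Trpm7, which pairs with Trpm6, at -0.38 (adjusted p = 0.00642). Of the 17 hormone and sensing genes tested, 3 rose and 4 fell at 24 h and 5 rose and 1 fell at 48 h. Ap2s1, an adaptor subunit that acts on Casr signalling, was at 0.48 at 24 h (adjusted p = 0.000565) and the FGF receptor Fgfr1 at -0.23 (adjusted p = 0.00153). At 48 h Amn, which anchors the uptake receptor cubilin, was at 0.43 (adjusted p = 0.00102) and Lrp2, which takes up vitamin D with its carrier protein, at -0.46 (adjusted p = 0.00561). Of 9 phosphate genes, 1 rose at 24 h, the carrier Slc20a1 (0.78, adjusted p = 0.000104), and 4 rose and 2 fell at 48 h, with Nherf1 at 0.46 (adjusted p = 0.00164) and Enpp1 at -0.42 (adjusted p = 0.00215). No gene of the 5 lists was called at 72 h. The median log2 difference of the lists lay between -0.08 and 0.15 at 24 h, and that of all genes was 0.0054.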

How the data were processed

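Bulk values are estimated counts per gene that the authors deposited without normalization. The build GRCm39 and the tools Salmon 1.5.0, FastQC 0.11.8 and R 4.10 are listed for them in the submitters' processing notes, without their roles. For the nuclei those notes list mm10, alevin and Seurat without settings. The nucleus table holds estimated UMI counts, deposited with the authors' cell classes. No doublet caller was run, no source used here says how the authors treated doublets, and 18 cell barcodes occurred in more than 1 nucleus library. Gene symbols came from GENCODE M21, and that annotation belongs to GRCm38, so no coordinates are given for bulk RNA. How reads shared by close copies of a gene were assigned is not given in the sources used here.

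Of the bulk values 34.1% were not whole numbers. The counts were rounded and tested with edgeR 4.0.16 (filterByExpr, TMM, quasi-likelihood, two-sided) in R 4.3.3, 12 libraries per time point. SE was taken as the size of the log2 fold change over the root of the F statistic. Nuclei were summed per mouse and class, for classes with at least 10 nuclei in every mouse. The labels give each sample its own mouse, so p-values measure the spread between these mice. In the nuclei, replicate numbers coincide with labelled batches, and deviations from the group mean of same-numbered mice correlated at 0.715 to 0.867 over the 6 sums checked, so they are paired. Alternatives were DESeq2 1.42.0 and its size factors, limma 3.58.1 voom, no filter on low counts, no mitochondrially encoded genes, all libraries in 1 fit, the replicate block, the pseudogene score and each library left out. The fits without 3 of the 48 h shams were chosen after seeing the data, including the values of these genes in those shams. The fits were tested on simulated data, where the nucleus fits without the block made no calls and those with it exceeded the nominal share of false calls. The 10 genes, the lists and the tests were chosen with earlier results of these data known. All 10 genes are named. From the other lists the text names, per list, time and direction, the called gene of lowest p. For likeness, the 2 genes with the highest r among those whose highest class mean is at least 50 CPM are named, and a few genes that these rules pick are not reported here. S100g, Cldn16 and Trpm6 were picked for printing because their windows held a match. The authors' deposited library factors for bulk RNA were left unused.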

Additional observations from a re-analysis of the deposited data

Results flagged for a closer look

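Among 60 groups of 6 libraries (10 genes in 6 groups), 4 had a highest or lowest library set apart from the other 5 by Dixon's test, which flags about 1 group in 20 by chance. Trpv5 in UNx at 24 h had its lowest library, replicate 1, at 11.1 CPM and the others at 13.3 to 14.2 CPM. Trpm6 in UNx at 48 h had its highest library, replicate 3, at 17.4 CPM and the others at 9.90 to 12.2 CPM. Cldn19 in shams at 72 h had replicate 5 at 41.4 CPM and the others at 21.4 to 27.5 CPM, and Casr in UNx at 72 h had replicate 4 at 74.5 CPM and the others at 57.5 to 62.2 CPM.

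The effect of nephrectomy differed between 24 h and 48 h by a test of the difference for Calb1 (-0.96 log2, adjusted p = 0.00131 in edgeR), S100g (-0.85, adjusted p = 0.0031) and Casr (0.62, adjusted p = 0.00141). The times also differ in labelled batch, which cannot be told apart from time here.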

How the results depend on the processing

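A direction is counted only where a call was made. Over the single genes, 2888 of the values under an alternative kept their side of the threshold, 49 lost a call, 43 gained one and 2 turned. Those that turned were Casr between 24 h and 48 h, at -0.089 ± 0.24 (SE) with the pseudogene score, and Trpv5 at 48 h, at 0.41 without sham replicates 4 to 6. The 24 h count of 5 was 0 with the score (80 of 14104 genes called), 1 with it over all 36 libraries (1755 of 15093) and 3 to 6 with each library left out (3102 to 4137 genes called). The 48 h count of 3 was 5 with all 36 libraries in 1 fit (5950 of 15093 genes called). It was 0 with the score in either fit (0 of 14280 and 16 of 15093 genes called) and 1 to 5 with each library left out (3727 to 6004 genes called). In the split of the shams, chosen on these genes' own values, it was 7 without sham replicates 1 to 3 (2650 of 14540 genes called). It was 1 without sham replicates 4 to 6 (3197 of 14634). The 72 h count of 0 was 2 in DESeq2 (673 of 14556 genes called), 1 in limma voom (809 of 14556) and 1 with all 36 libraries in 1 fit (312 of 15093). With each library left out it was 0 to 2 (102 to 677 genes called). The count of changed effects from 24 h to 48 h was 0 with the score (1 of 15093 genes called) and 3 to 4 with each library left out (5175 to 6320 genes called). From 24 h to 72 h DESeq2 called 1. In the nuclei the count of pairs was 1 in DESeq2 and 11 with the replicate block, and over all nuclei it was 2 with the block. The fits with each mouse left out had no block, and in them the lone mouse is assumed to vary like the others. They therefore cannot show whether the 11 pairs depend on 1 mouse. In bulk RNA the replicate numbers do not pair the mice (r of deviations -0.297 to 0.14, 2 of 18 pairs over 0.1). The replicate block gave 4 calls at 24 h (3186 of 14104 genes called), 4 at 48 h (4404 of 14280) and 0 at 72 h (120 of 14556). The cause of these changes was not tested. By share of nuclei with a count in place of CPM, the leading class came to rank 2 for Calb1 and rank 5 for Pth1r.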
